A study of Mus musculus with 6 samples.

Results

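The genes described here are 8 markers of the naive pluripotent state and of the early mouse embryo, Dppa5a, Dppa4, Dppa2, Dppa3, Utf1, Zfp42, Tdh and L1td1, of 55450 annotated genes on the chromosomes used. They were taken as a list by name, and all but Tdh and L1td1 also stand on the study's list of mESC markers. All 8 passed the filter on low counts, which 18490 genes passed, and they passed it through the mESC libraries alone. Start-site tags were obtained by CAGE, which captures the cap of an RNA and sequences a short tag from its 5′ end. The tags at a position thus come from RNAs that start there, with PCR copies counted as well. The RNA came from nuclei of 2 mouse lines, with 3 libraries each. The mESC libraries are from R08, a male embryonic stem cell line kept without feeder cells in serum with LIF. The mOPC libraries are from Oli-neu, a neural line derived from oligodendrocyte progenitor cells and grown with thyroid hormones, bFGF and PDGF-BB. The paper gives no sex for Oli-neu, and the part of sex in the differences between the lines was not tested. Each line stands for its cell type alone, and nothing in the labels says that libraries of a line are separate cultures, so that p-values measure only the spread between these libraries.

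The naive state is that of the preimplantation epiblast, which mESCs keep in culture, and it is lost when cells take on a lineage. Dppa2 and Dppa4 are chromatin proteins with a SAP domain that bind DNA together and act on genes of the 2-cell embryo. Dppa3, also called Stella, is stored in the oocyte and holds back changes of DNA methylation in the zygote. Zfp42, or Rex1, is a zinc finger protein related to Yy1, Utf1 is bound to chromatin, Dppa5a and L1td1 bind RNA, and Tdh is the mitochondrial enzyme that breaks down threonine.

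The sequences around the main start positions are shown because they let the shape of each promoter be read beside its tags. They run 5′ to 3′ on the strand of the gene, are taken from GENCODE vM21 transcripts or from RefSeq promoters (GRCm38.p6), and carry in capitals the base of the deposited start position and the base after it. Stretches are at most 30 bases long.
Dppa5a first start, chr9:78368148-78368177, minus strand: tcctgaacctggagctgtgGGccgtgcgtg
Dppa5a second start, chr9:78368148-78368177, minus strand: tcctgaacctggagctgtgggcCGtgcgtg
Dppa3, chr6:122626410-122626439, plus strand: cccccccccCAttcacagactgactgctaa
Dppa2 downstream promoter, chr16:48310419-48310448, plus strand: caggaagacaggaagCAgtcatttacttat
Utf1, chr7:139943806-139943835, plus strand: ctctggaggagccctCCtctctggtgaggc
Zfp42 first start, chr8:43306990-43307019, minus strand: gtaagtgtggccggaACagagttcgtccat
Zfp42 second start, chr8:43306948-43306977, minus strand: gggtccaaggagctgAActcctagccgcct
Tdh, chr14:63508768-63508797, minus strand: ataaaaggcagaaccaaactcttgactcCG
L1td1, chr4:98726783-98726812, plus strand: gcccagccctgctttTGtcagcgtgtgtga

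Start sites of mammalian RNAs are mostly a purine that follows a pyrimidine. Across RefSeq promoters with a position of at least 100 tags, the deposited position held a pyrimidine and the next base a purine in 88.1% of 5799 promoters of the first mESC library, and the share was between 88.1 and 89.8% in all 6 libraries. The pair of the base before and the deposited base was of that kind in only 0.936 to 1.37% of promoters. The deposited positions thus lay mostly 1 base upstream of the purine, and positions are given here as deposited. The cause of this offset was not tested. The pair of Dppa3, the downstream promoter of Dppa2, the second start of Dppa5a, Tdh and L1td1 was pyrimidine and purine, whereas the first start of Dppa5a held GG, Utf1 CC and the starts of Zfp42 AC and AA. For Dppa4 and the upstream promoter of Dppa2 no sequence is shown.

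Further stretches show the promoters of Zfp42 and Utf1, whose starts were spread over many positions. In Zfp42, chr8:43307010-43307259 on the minus strand, ending at the base before the RefSeq start, the capitals mark the octamer ATTTGCAT, the sequence bound by Oct factors, and CCACACCC, a sequence bound by Klf factors.
Zfp42 promoter: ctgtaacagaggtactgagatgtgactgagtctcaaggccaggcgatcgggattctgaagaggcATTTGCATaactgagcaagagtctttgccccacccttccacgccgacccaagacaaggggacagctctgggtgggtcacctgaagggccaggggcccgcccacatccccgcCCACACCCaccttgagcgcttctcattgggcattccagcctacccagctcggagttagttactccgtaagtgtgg
In Utf1, chr7:139943606-139943818 on the plus strand, the capitals mark GGGCGG, the core of the GC box.
Utf1 promoter: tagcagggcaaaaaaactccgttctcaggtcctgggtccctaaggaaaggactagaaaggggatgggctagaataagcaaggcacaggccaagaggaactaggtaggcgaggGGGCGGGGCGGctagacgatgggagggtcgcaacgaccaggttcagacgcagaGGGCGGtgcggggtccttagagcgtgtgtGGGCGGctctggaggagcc
The RefSeq table held promoters of 3 of the 8 genes, Utf1, Zfp42 and L1td1, among 32851 promoters (250 bases before to 50 after the start), and 8 motifs were searched on both strands. ATTTGCAT began 186 bases before the start of Zfp42, and 1.74% of all promoters hold it. CCACACCC began 75 bases before that start, and 3.56% of all promoters hold it. GGGCGG occurred 4 times in Utf1, where the first pair of matches overlaps by 1 base, and 2 times in Zfp42 on the other strand, beside 35.7% of all promoters with at least 1 match. Zfp42 also held CCAAT on the other strand, as did 37.4% of promoters on either strand. TATAAA (13.6% of all promoters), AAGGTCA (4.72%) and ACAAAG (18.7%) matched none of the 3, and the joint motif of Oct and Sox factors matched none of the 32851. L1td1 held none of the 8 motifs in this window. The GC content of the 3 promoters was between 57.7 and 62.0%, beside a median of 52.7% over all promoters.

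All 8 genes had tags in every mESC library and none within 500 bp of an annotated 5′ end in any mOPC library. The 8 genes together held 0.324, 0.323 and 0.297% of the tags of mESC libraries 1, 2 and 3. A count of 0 in the pooled 91692553 mOPC tags allows a level of up to 0.0327 CPM, that is tags scaled to a library total of 1000000 (3 tags, counting error only). All 8 passed the edgeR quasi-likelihood test as higher in mESCs, beside 48.9% of all genes tested. With 0 tags in mOPCs, the 8 genes could be called in this direction only. The lines differed in either direction at 91.0% of the genes tested. Of the 9683 protein-coding genes at or above the lowest of the 8 in mESCs, 3.27% had 0 tags in all mOPC libraries. Among the 258 protein-coding genes at or above L1td1, 9 did (3.49%): Dppa5a, Zfp42, Utf1, Tdh, L1td1, Pou5f1, Prrg4, Lactb2 and Ddx3y, of which the last 3 were singled out after their values were seen.

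Dppa5a, an RNA-binding KH-domain protein of pluripotent and germ cells, was the highest. It had 45696, 20201 and 18438 tags in mESC libraries 1, 2 and 3, which is 1206, 1213 and 1001 CPM (1140 ± 121, SD, n = 3). The third library was the lowest, and the level ranked 25th among 21951 protein-coding genes. Against the limit in the mOPC libraries, Dppa5a was at least 35323-fold higher in mESCs (adjusted p = 3.38e-48, edgeR).

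Zfp42, a zinc finger protein whose loss marks the exit from the naive state, had 613, 630 and 640 CPM (628 ± 13.7, SD, n = 3). Of the 8 genes it varied the least between libraries, with a coefficient of variation of 2.18%. It ranked 109th and was at least 19069-fold higher in mESCs (adjusted p = 2.59e-51, edgeR). Utf1, a chromatin protein of undifferentiated cells, had 514, 434 and 436 CPM (461 ± 45.5, SD, n = 3), so that the first library stood above the other two. It was at least 14553-fold higher in mESCs (adjusted p = 9.04e-47, edgeR).

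Tdh, which feeds threonine into glycine and acetyl-CoA in mESCs, had 467, 468 and 412 CPM (449 ± 31.8, SD, n = 3). It was at least 13857-fold higher in mESCs (adjusted p = 1.75e-50, edgeR). L1td1, an RNA-binding protein that arose from an open reading frame of a LINE-1 element, had 374, 416 and 416 CPM (402 ± 24.2, SD, n = 3). Here the first library was the lowest, and the fold was at least 12043 (adjusted p = 1.05e-50, edgeR).

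The DNA-binding pair and Dppa3 were at lower levels. Dppa4 had 1664, 642 and 820 tags, which is 43.9, 38.5 and 44.5 CPM (42.3 ± 3.28, SD, n = 3). Its partner Dppa2 had 627, 285 and 293 tags, or 16.5, 17.1 and 15.9 CPM (16.5 ± 0.605, SD, n = 3). Dppa4 was thus 2.56-fold above Dppa2, with no overlap between their libraries. The bounds of the fold over mOPCs were 1309 for Dppa4 (adjusted p = 2.79e-41, edgeR) and 505 for Dppa2 (adjusted p = 6.42e-35, edgeR). Dppa3, the maternal factor, was the lowest with 312, 151 and 131 tags. These are 8.23, 9.07 and 7.11 CPM (8.14 ± 0.982, SD, n = 3), and Dppa3 was at least 249-fold higher in mESCs (adjusted p = 2.12e-29, edgeR).

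CAGE tags come from capped 5′ ends only, so that CPM values do not depend on the length of a gene. The order of the levels was Dppa5a, Zfp42, Utf1, Tdh, L1td1, Dppa4, Dppa2 and Dppa3. Utf1 and Tdh overlapped between libraries, as did Tdh and L1td1, and all other neighbours in the order were apart. The largest step lay between L1td1 and Dppa4 (9.49-fold), and Dppa5a was 140-fold above Dppa3. The median bound of the 8 genes was 13.66 on the log2 scale, beside a median of 0.16 over all genes tested, computed in the same way. The two-sided exact permutation test of each gene gave p = 0.1, the smallest that 3 libraries against 3 allow. The bounds scale with the tags of the mOPC libraries: without the third mOPC library, which holds the most, the limit is 0.0591 CPM and the bounds run from 138 for Dppa3 to 19556 for Dppa5a.

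**Figure D1:**
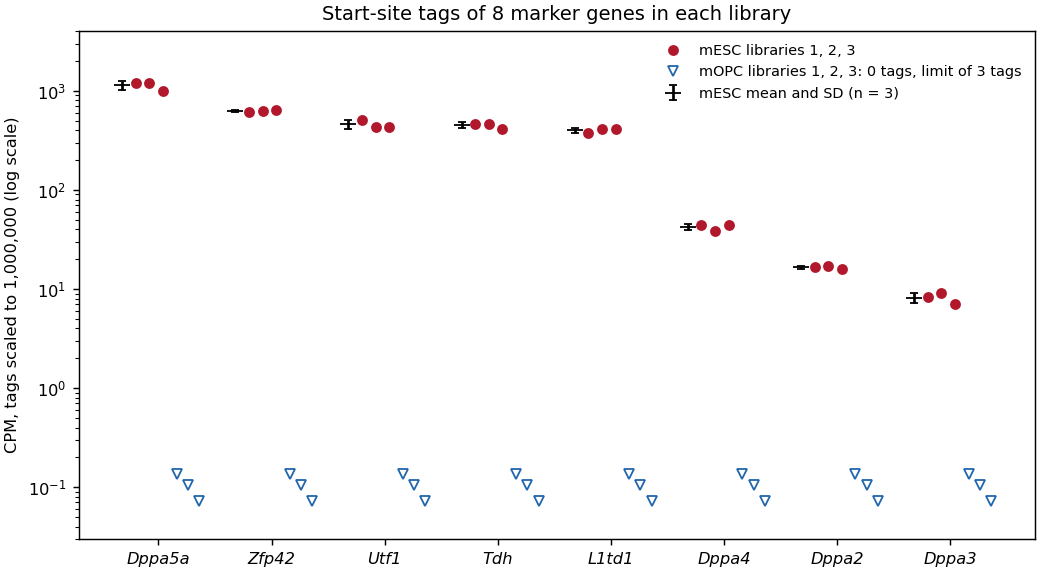
CPM (log axis) of the 8 genes in each library, ordered by mean. Red points are the 3 mESC libraries, black bars their mean and SD, and open triangles the limits of 0.0733 to 0.137 CPM that 0 tags allow in each mOPC library. The 5 highest genes lie at 374 CPM or more and Dppa3 between 7.11 and 9.07, while every mOPC value is 0.

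Tags were also counted over the whole body of each gene. In mOPCs, 6 of the 8 genes had no tag on the gene's strand anywhere in the annotated gene. Dppa2 had 2 tags, 1 each in the second and the third library, and Tdh had 2 in the second. The ratio of mESC to mOPC body tags was 842 for Dppa2 (95% exact binomial interval 233 to 6959) and 21320 for Tdh (5901 to 176051). In mESCs, body tags outside the start windows were 8.65 to 10.9% of the tags of Dppa2, 7.64 to 8.03% of those of Zfp42 and 6.88 to 8.17% of those of L1td1. They were at most 5.76% in the other genes, and Dppa5a had none.

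Where RNAs started differed between the genes. Sharp promoters, in which most RNAs start within a few bases, are known from tissue-specific genes, and broad ones from genes with many G and C bases. The width given here holds the middle 80% of the tags of the window with the main start. Over the 9683 protein-coding genes at or above Dppa3, the median width was 53 bp and the median share of the most used position 19.2%.

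Dppa5a had a sharp pair of starts. Of its 84335 pooled mESC tags, 38.3% lay at position 78368158 of chromosome 9 and 37.9% at position 78368155, 3 bp further downstream. The first position held 17106, 8070 and 7132 tags in libraries 1, 2 and 3 and the second 17314, 7705 and 6977. The order of the pair therefore turned in the first library, and the starts were about equal. The middle 80% spanned 6 bp in every mESC library, and 2.77% of the 9683 genes were narrower. The first start was 19 bp downstream of the annotated 5′ end.

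Dppa4 started at 1 position. Position 48283730 of chromosome 16, 3 bp upstream of the annotated 5′ end, held 72.3, 76.2 and 74.5% of the tags of the 3 mESC libraries. The middle 80% spanned 8 bp, and the rest lay mostly at 4, 7 and 10 bp upstream with 5.25, 4.41 and 4.09% of the pooled tags. The share of the main start ranked at percentile 98.5 of the 9683 genes.

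Tdh also started at 1 main position, but away from the most upstream annotated 5′ end. Position 63508769 of chromosome 14 held 72.2, 76.0 and 74.7% of the tags of its window in the 3 mESC libraries. It lay 323 bp inside the first annotated exon and 13 bp upstream of another annotated 5′ end. The remaining tags trailed upstream, so that the middle 80% spanned 58 bp, and 21 bp when only tags within 100 bp of an annotated 5′ end were used. The sequence ATAAAA stands at the left end of the stretch shown above, 28 bases before the start. This A/T-rich sequence was noticed in the stretch and then counted: of the promoters with a position of at least 100 tags, 64 of 5799, 44 of 3794 and 49 of 4076 in mESC libraries 1, 2 and 3 held it 22 to 34 bases upstream of their main start, and 48 of 4570, 51 of 5343 and 54 of 6107 in the mOPC libraries. A second window of Tdh held 7.52 to 8.95% of its tags, with its peak at 63500169, 8600 bp downstream, where starts were spread over 166 bp.

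Dppa2 had starts at 2 promoters, whose main starts were 6565 bp apart. The upstream window held 35.2 to 38.6% of its tags in the 3 mESC libraries and the downstream window the other 61.4 to 64.8%. In CPM these were 5.83, 6.48 and 6.13 for the upstream and 10.7, 10.6 and 9.77 for the downstream promoter, with no overlap between them. The upstream promoter had a main start at 48303869 of chromosome 16 with 37.1% of its 442 tags, 39 bp upstream of the annotated 5′ end. The downstream promoter was spread over 319 bp, and its highest position, 48310434, held 14.4% of 763 tags. Both promoters were at 0 tags in all mOPC libraries.

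Dppa3 had a main start and a second group. Position 122626419 of chromosome 6, 9 bp downstream of the annotated 5′ end, held 46.2, 35.1 and 35.1% of the tags, so that the first mESC library stood above the other two. Another 12.6% of the 594 pooled tags lay 72 bp further downstream at 122626491. The middle 80% spanned 82 bp.

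In the pooled mESC libraries, the starts of Zfp42, Utf1 and L1td1 were spread over more than the median width. So were those of Tdh, Dppa3 and both promoters of Dppa2. The upstream promoter of Dppa2 spanned 72, 32 and 72 bp in libraries 1, 2 and 3, and was thus narrower than the median in the second. In Zfp42 the middle 80% spanned 76 bp (75 to 77 bp between libraries), and the starts formed groups around 43307004 and 43306962 of chromosome 8, 42 bp apart. These held 12.7 and 12.6% of 45528 tags, and the second was ahead in the first mESC library only. The main start lay 24 bp upstream of the nearest annotated 5′ end. Utf1 had its highest position at 139943821 of chromosome 7, 32 bp downstream of the annotated 5′ end, with 15.5% of the tags, followed by positions 27 and 48 bp downstream with 10.0 and 9.70%. Its middle 80% spanned 83 bp. In L1td1, position 98726798 of chromosome 4 held 27.1% and a position 6 bp upstream 13.5% of the tags, over a width of 63 bp. A separate annotated 5′ end of L1td1 further downstream drew 0.940 to 1.37% of its tags. The main starts of 6 of the 8 genes were the same position in all 3 mESC libraries, the exceptions being the near-equal pairs of Dppa5a and Zfp42.

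**Figure D2:**
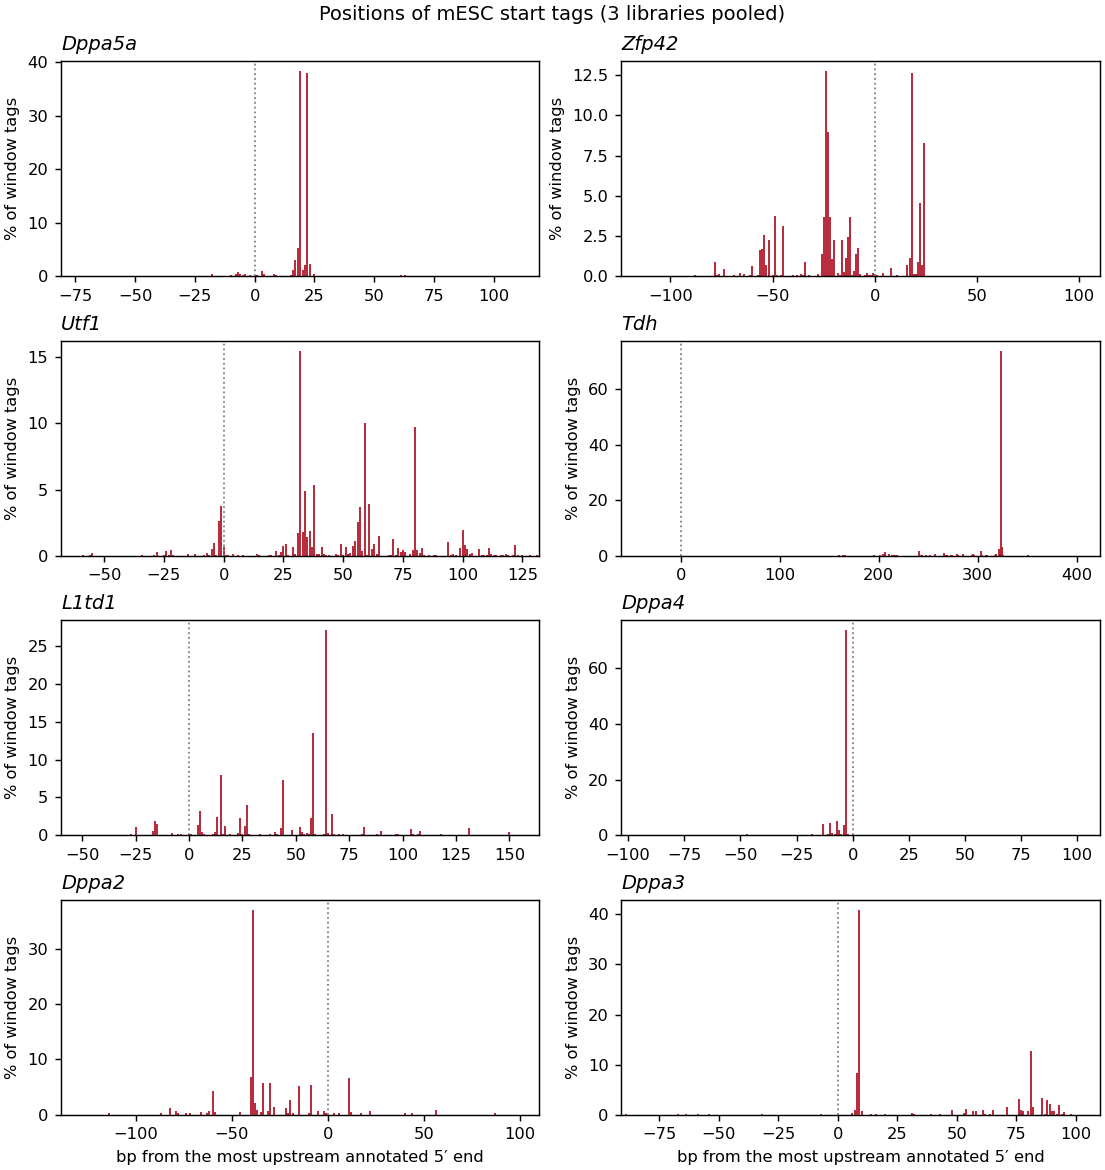
Share of window tags (%) at each position, 3 mESC libraries pooled, against the distance in bp from the most upstream annotated 5′ end (dotted line). Dppa5a shows a pair of starts 3 bp apart, Dppa4 and Tdh a single main start, and Zfp42, Utf1 and L1td1 several starts over 63 to 83 bp. Only the upstream promoter of Dppa2 is drawn.

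**Figure D3:**
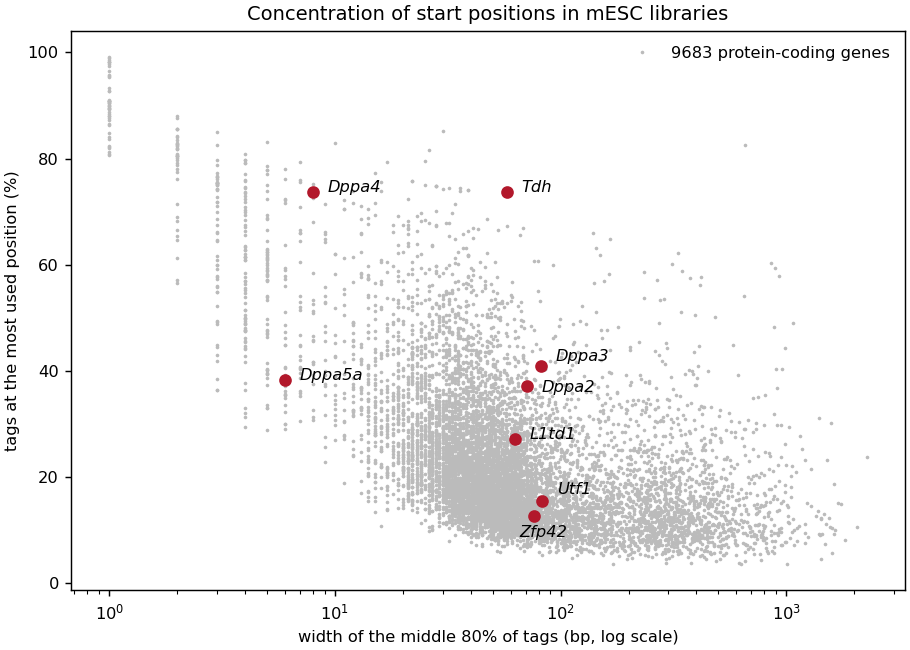
Share of tags at the most used position (%) against the width of the middle 80% of tags (bp, log axis) in pooled mESC libraries, for 9683 protein-coding genes (grey) and the 8 genes (red). Dppa5a and Dppa4 lie among the narrow promoters at 6 and 8 bp, Tdh combines a share of 73.7% with a width of 58 bp, and the others lie between 63 and 83 bp. Dppa2 is drawn by its upstream promoter only. Its downstream promoter, with more tags, spans 319 bp and has 14.4% at its highest position.

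Copies of some of the genes exist in the genome, and tags that match 2 places equally are not counted by unique alignment. The pseudogenes Dppa5b and Dppa5c had 0 tags in all 6 libraries, and Dppa3-ps had 3, 1 and 0 tags in mESCs. Zfp42-ps1, a processed copy on chromosome 15, had 10.5, 8.10 and 10.9 CPM in mESCs and 0 in mOPCs. Its highest position lay 297 bp upstream of the annotated end of the copy. How reads were split between Zfp42 and this copy was not tested.

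The lines were checked with markers of cell types. All 6 pluripotency markers were higher in mESCs, with summed levels of 1803 to 1951 CPM in mESCs and 22.9 to 24.9 in mOPCs, nearly all of the latter Sox2. Of 6 oligodendrocyte progenitor markers, 5 were higher in mOPCs, with summed levels of 1399 to 1494 in mOPCs and 7.23 to 8.16 in mESCs. Nkx2-2 was not tested, with 0 tags in its start windows in all mOPC libraries. With tags in the gene body, Nkx2-2 was called higher in mOPCs (adjusted p = 0.0109, edgeR). With no filter on low counts, it was called higher in mESCs (adjusted p = 0.0197, edgeR). Pdgfra, the PDGF receptor of these progenitors, was not called with tags within 100 bp (log2 fold change -0.18, adjusted p = 0.22, edgeR). All 5 primitive endoderm markers were higher in mESCs, at summed levels of 30.1 to 36.9 there and 0 to 0.0347 in mOPCs, and they therefore moved with the 8 genes. Of the fibroblast markers, 1 of 5 was tested and higher in mOPCs (sums 2.32 to 2.40 against 9.67 to 12.3), and Lum was at 0 in all libraries. The 3 neuron markers summed to 8.04 to 8.58 in mESCs and 80.6 to 101 in mOPCs, all of the latter Syt1. The other 2, Rbfox3 and Snap25, were higher in mESCs, with 0 tags in mOPCs. The 3 astrocyte markers summed to 7.86 to 10.6 and 0.806 to 1.14, with 1 of the 2 tested higher in each line. The one higher in mOPCs, Gfap, was not called with DESeq2 (adjusted p = 0.0759) or without the first mESC library (adjusted p = 0.066, edgeR). The part of other cell types in the values of the 8 genes was not tested, and in bulk libraries fewer cells of a type and less RNA per cell cannot be told apart. All mESC libraries carry the same library label in the files and all mOPC libraries another, so that preparation and cell type cannot be told apart.

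Other genes of naive pluripotency were higher in mESCs without exception among the 16 listed, beside 48.9% of all genes tested. This list was written with earlier results of these data known. The median of the 16 genes was 11.18 on the log2 scale with genes at 0 tags set to the floor of 3 tags. Of the 16, 7 had 0 tags in mOPCs and could be called in this direction only. Klf2, a Krüppel-like factor of the naive state, was the highest with 579, 539 and 464 CPM in mESCs and 5.43, 5.03 and 3.35 in mOPCs, a ratio of 124 (adjusted p = 1.88e-20, edgeR). Tfcp2l1, a transcription factor downstream of LIF, had 511, 462 and 459 CPM and 3 pooled tags in mOPCs, and Fgf4, the growth factor that drives the exit from this state, had 437, 420 and 399 and 1 pooled tag. The ratio was 14873 for Tfcp2l1 (95% exact binomial interval 5089 to 72123). Tfcp2l1 and Fgf4 were thus close to Utf1, Tdh and L1td1 in level.

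Genes of the formative and primed epiblast were split. Of 9 listed genes, 5 were tested, 3 were higher in mESCs and 2 higher in mOPCs, beside 48.9 and 42.1% of all genes tested. The median log2 fold change was 1.34. Dnmt3b, a de novo DNA methyltransferase, was the highest with 20.5, 18.5 and 20.9 CPM in mESCs and 6.66, 8.67 and 8.11 in mOPCs (log2 fold change 1.37 ± 0.12, SE, adjusted p = 3.32e-16, edgeR). Otx2, a homeobox factor of the formative state, had 12.0, 11.8 and 11.3 and no tag in mOPCs. Zic2 and Sox3, which neural cells also express, were higher in mOPCs, Zic2 with 0.370, 0.420 and 0.271 against 3.28, 3.81 and 4.23 CPM. The values of Sox3 were 4.33, 3.60 and 2.77 in mESCs and 8.12, 7.18 and 6.06 in mOPCs.

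Of 15 genes of the 2-cell stage, the setting in which Dppa2 and Dppa4 are known as activators, only Zscan4c was tested. It had 7.84, 6.90 and 7.65 CPM in mESCs and 0, 0.208 and 0.195 in mOPCs (adjusted p = 3.19e-26, edgeR). The other 14 were at most 0.950 CPM in any library, the highest being Usp17lb and Usp17la. These families consist of near-identical copies, which unique alignment undercounts, so that their levels are uncertain.

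Tdh and Gcat together turn threonine into glycine, and the glycine cleavage system passes its carbon to folate. Of 13 genes of this pathway and of folate metabolism, 8 were higher and 2 lower in mESCs, beside 48.9 and 42.1% of all genes tested. The median log2 fold change was 0.68. Gldc, the decarboxylase of the cleavage system, rose the most, with 523, 564 and 561 CPM in mESCs and 2.92, 3.68 and 4.01 in mOPCs, a ratio of 149 (adjusted p = 1.81e-49, edgeR). Its level in mESCs was above that of Tdh in every library. Mthfd1, a folate enzyme of the cytosol, was the second highest with 282, 277 and 273 CPM against 68.6, 62.5 and 65.5. The third, Dld, is shared with other mitochondrial complexes and differed less, with 134, 155 and 147 against 91.0, 89.3 and 86.2. Gcat, whose annotation overlaps a second entry of the same name, had 42.8, 37.6 and 35.8 against 3.60, 4.89 and 5.28. Aldh1l2, a mitochondrial folate enzyme, was 43.3-fold higher in mOPCs, with 4.46, 4.20 and 4.02 CPM in mESCs and 181, 167 and 201 in mOPCs (adjusted p = 2.76e-44, edgeR). Mthfd1l was called higher in mOPCs as well, but not without the first mESC library (adjusted p = 0.0665, edgeR) or without the third mOPC library (adjusted p = 0.0724, edgeR).

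Of 7 listed oocyte genes, 3 were tested. Only Ooep lies beside Dppa5a, 7932 bp away, while Khdc3 lies elsewhere on chromosome 9 and the others on other chromosomes. Ooep, a subunit of the maternal complex of the oocyte, had 57.2, 53.4 and 58.7 CPM in mESCs and 0.274, 0.381 and 0.391 in mOPCs. Its partner Khdc3 had 15.5, 14.2 and 17.7 and no tag in mOPCs. Tle6, another subunit, was higher in mOPCs, with 2.80, 4.14 and 3.47 CPM in mESCs and 91.0, 79.3 and 86.0 in mOPCs (log2 fold change -4.65 ± 0.12, SE, adjusted p = 5.68e-40, edgeR).

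Dppa3 is known to act on enzymes of DNA methylation. Of 8 listed genes, 7 were higher in mESCs and 1 lower, beside 48.9 and 42.1% of all genes tested. Their median log2 fold change was 1.37. Tet1, which oxidizes methylated cytosine, was the highest with 975, 1045 and 1072 CPM in mESCs and 57.9, 56.5 and 54.3 in mOPCs (log2 fold change 4.22 ± 0.10, SE, adjusted p = 1.27e-42, edgeR). Tet2 followed with 230, 253 and 262 against 167, 155 and 157. Dnmt3l, a cofactor of DNA methyltransferases, had 172, 148 and 140 CPM in mESCs and 1 pooled tag in mOPCs. Tet3, the form known from the zygote, was higher in mOPCs, with 14.7, 16.3 and 17.7 against 94.8, 96.5 and 106 CPM (log2 fold change -2.59 ± 0.09, SE, adjusted p = 1.71e-32, edgeR).

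Among relatives and partners of the 8 genes, 3 of the 4 tested were higher in mESCs, beside 48.9% of all genes tested. Lin28b, which holds back let-7 miRNAs, had 141, 151 and 158 CPM in mESCs and 0.912, 0.728 and 0.733 in mOPCs, and Lin28a, known to bind RNA together with L1td1, had 101, 104 and 96.2 and 1 pooled tag in mOPCs. Yy1, the relative from which Zfp42 is thought to derive, had between 26.8 and 29.1 CPM in mESCs and between 28.3 and 29.2 in mOPCs and was not called (adjusted p = 0.728, edgeR). With tags within 100 bp it was called higher in mESCs (log2 fold change 1.02, adjusted p = 5.13e-12, edgeR). Yy2, a copy of Yy1, was 91.7-fold higher in mESCs. Dppa1 had 0 tags in all 6 libraries.

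**Figure D4:**
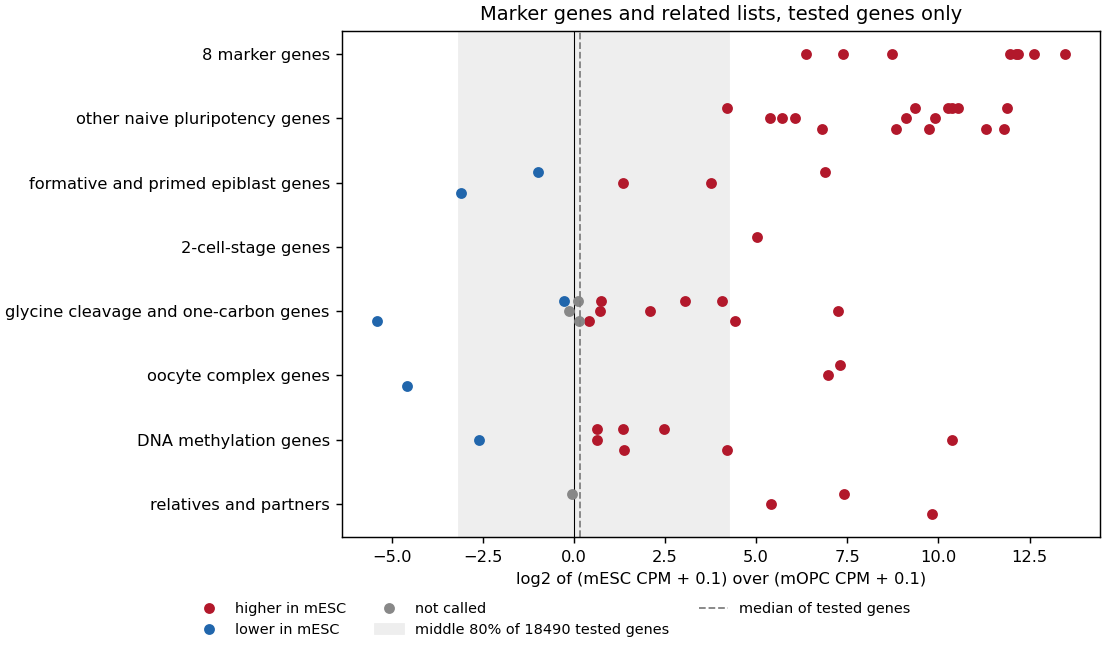
Log2 of the mean CPM plus 0.1 in mESCs over that in mOPCs, for the tested genes of each list, where 0.1 is a pseudocount that understates the change of genes at 0. Red points were called higher in mESCs, blue points lower and grey points neither, beside the middle 80% of all 18490 tested genes (-3.15 to 4.27). The 8 genes lie to the right of that band, and the other naive genes lie at its right edge (Klf4) or beyond it.

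Around the 8 genes, 28 other protein-coding genes were the nearest 2 on either side. Their distance from the gene ran from 2252 bp (Kndc1) to 2128656 bp (Gm4737). Of the 21 tested, 15 were higher in mESCs, 5 lower and 1 was not called, beside 48.9% higher and 42.1% lower over all genes tested. Of the 21, 7 had 0 tags in mOPCs, passed the filter through the mESC libraries alone and could be called higher in mESCs only. Among protein-coding genes at or above Dppa3 in mESCs, which are a different set, the share with 0 tags in mOPCs was 3.27%. Whether the neighbours differ from other genes was not tested. Dppa3 lies between Gdf3 and Nanog, and all 4 of its neighbours were higher in mESCs. Gdf3, a growth factor, had 48.3, 46.4 and 41.9 CPM, and Nanog, the homeobox factor of the naive state, had 121, 123 and 125, both with no tag in mOPCs. The outer neighbours Apobec1 (34.3, 32.7 and 35.5 against 8.89, 10.8 and 11.4) and Slc2a3, a glucose transporter (301, 297 and 284 against 15.6, 17.5 and 19.3), had tags in both lines.

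Dppa2 and Dppa4 lie 9671 bp apart on the same strand. Beyond them, Morc1, a gene of the male germ line, had 134, 136 and 139 CPM in mESCs and none in mOPCs, and Nectin3, an adhesion molecule, 152, 157 and 145 against 39.2, 38.3 and 39.5. Gm4737 and Gm5485 had at most 1 tag in any cell type and were not tested. Next to Dppa5a are Ooep and Ddx43, a helicase with 18.5, 18.6 and 22.6 CPM in mESCs and none in mOPCs, whereas Gsta2 was higher in mOPCs at under 1 CPM and Omt2b had no tag. Triml2 and Triml1, beside Zfp42, had no tag in mOPCs and 256 to 269 and 2.01 to 2.77 CPM in mESCs, while Adam26b and Adam26a had no tag at all.

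Utf1, Tdh and L1td1 had neighbours that went either way. To the left of Utf1, Kndc1, 2252 bp away, had 0.211, 0.0600 and 0.271 CPM in mESCs and 5.84, 5.58 and 5.99 in mOPCs, and Adgra1 had none in mESCs and 2.08 to 2.76 in mOPCs. Both were called higher in mOPCs (adjusted p = 7.91e-24 for Kndc1, edgeR), whereas 6430531B16Rik and Adam8 to its right were called higher in mESCs at under 4 CPM. Beside Tdh, Mtmr9 was higher in mESCs (62.6, 54.6 and 60.6 against 24.5, 31.1 and 27.3), Xkr6 higher in mOPCs (24.8, 24.9 and 27.9 against 86.6, 87.8 and 89.3), Fam167a higher in mOPCs at under 2 CPM, and Blk had no tag. Beside L1td1, Patj, a polarity protein, had 21.2, 22.1 and 24.4 against 0.502, 0.347 and 0.318, and Kank4 4.43, 4.86 and 4.02 against 0.182, 0.173 and 0.147. Tm2d1 was not called (adjusted p = 0.983, edgeR) and I0C0044D17Rik had 1 tag.

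The protein-coding genes most like each of the 8 were sought by the Euclidean distance of log2 CPM plus 0.1 over the 6 libraries, a measure that rests on level and on absence from mOPCs. Dppa5a was nearest to Pou5f1, the Oct4 gene (distance 0.335), which had 995, 1079 and 947 CPM, and then to Prrg4 (1.68). Zfp42 was nearest to Prrg4 (0.209) and Lactb2 (0.662), and Utf1 and Tdh both to Lactb2 and Fgf4. L1td1 was nearest to Ddx3y (0.230) and Fgf4 (0.489). At lower levels many genes are alike: Dppa4 was nearest to Stat4 (0.0641) and Adap2, Dppa2 to As3mt (0.0510) and Tnfrsf1b, and Dppa3 to Pof1b (0.0755) and Ppp1r3b.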

How the data were processed

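CAGE tags of nuclear RNA were analysed for 3 mESC and 3 mOPC libraries. The authors dropped reads with undetermined bases, cut off the linkers, kept tags with 1 alignment to mm10 and deposited raw counts of tags by position and strand of the 5′ end. The paper's methods and the submitters' processing notes name different aligners, and the notes name CASAVA 1.8 and BWA 0.5.9. Libraries held 16657021 to 40928704 tags, and a level of 3 tags is 0.0733 to 0.180 CPM. Tags carry no molecular identifiers, so that intervals and floors cover counting error only.

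Tags within 500 bp of each GENCODE vM21 5′ end on the gene's strand were summed in Python 3.11.15 (pandas 2.3.3, numpy 2.4.6, scipy 1.17.1, figures by matplotlib 3.10.9) and scaled to library totals of 1000000 (CPM). Of all tags, 11.9 to 12.4% in mESCs and 19.2 to 19.7% in mOPCs lay outside such windows. Counts of all genes were tested with the quasi-likelihood test of edgeR 4.0.16 in R 4.3.3 (TMM, filterByExpr, Benjamini-Hochberg adjusted p under 0.05), with DESeq2 1.42.0 as the alternative tool. On simulated counts of 18490 genes for this comparison, 200 of 200 planted changes of 2 on the log2 scale were recovered, with 7 false of 207 calls. The coefficient of variation between libraries was set to 0.1, and no more than these 200 changes were planted. Recovery where most genes differ, as with the 91.0% called between the lines, was not tested. Libraries of a line differed by more than sampling noise (chi-square per degree of freedom 4.53 to 11.4). Where a line had 0 tags, folds are bounds from 3 pooled tags, and with 1 to 3 tags ratios carry 95% intervals. Members, lists and motifs were chosen with earlier results of these data known. Named are the 8 genes, the 3 highest genes of each list in mESCs and those higher in mOPCs, the nearest 2 genes on each side and the 2 most alike. Gcat, Yy2, Dppa1 and the pseudogenes were named after their values were seen.

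Alternatives were library totals, DESeq2, no filter, tags within 100 bp, in the gene body or in windows of 1 gene, thinned libraries, a replicate block and each library left out.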

Additional observations from a re-analysis of the deposited data

Results flagged for a closer look

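Tags on the strand opposite to the genes entered no comparison above and exceeded the limit of 3 tags in the start windows of 7 of the 8 genes in the pooled mESC libraries. Tdh had 1026 such tags (531, 238 and 257 in libraries 1, 2 and 3), which is 3.10% of its sense tags. The highest position, 63497305 with 211 tags, lay 11464 bp downstream of the main start of the gene, near its most downstream annotated 5′ end. Zfp42 had 969 opposite-strand tags (543, 191 and 235), of which 723 lay at 1 position, 43307232, 228 bp upstream of its main start. This position held 400, 148 and 175 tags in the 3 mESC libraries and none in mOPCs. L1td1 had 212, Dppa2 174 (14.4% of its sense tags), Dppa5a 49, Dppa4 24 and Utf1 17 such tags, spread over many positions. In mOPCs, Dppa2 and Dppa3 had 1 opposite-strand tag each in these windows and the other genes none, although 16 tags lay opposite to Zfp42 elsewhere in the gene, 6, 5 and 5 in the 3 libraries.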

How the results depend on the processing

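All 8 genes remained called higher in mESCs under each of the 14 alternatives, and the largest adjusted p of any of them was 9.61e-18, for Dppa3. The bound or ratio of the fold ran from 136 to 261 for Dppa3 and from 18992 to 36925 for Dppa5a, lower in thinned libraries or without the third mOPC library, where fewer mOPC tags set the floor. The number of all genes called was 16832 and stayed within 1.5 times of that (15083 to 21147), and 51.3 to 55.4% of calls were higher in mESCs. With the replicate number as a block, 16833 genes were called, all 8 genes among them, and no call of a listed gene changed. Deviations of same-numbered libraries from the mean of their line correlated at 0.0124, 0.0672 and 0.0154, and those of other-numbered libraries at -0.0735 to 0.0591. With 3 libraries per line, these values cannot show whether libraries were handled in numbered pairs. Of the 2-cell genes, 1 was called higher in mESCs, but 4 with DESeq2, 5 with no filter on low counts, 2 with tags in the gene body and 1 to 3 with a library left out. The cause was not tested. Of the folate genes, 1 to 2 were called lower in mESCs with a library left out. Mthfd2l was also called lower with tags in the gene body (log2 fold change -0.52, adjusted p = 1.66e-06, edgeR). Shmt2 and Mthfd2, not called in the main test, were called higher in mESCs under some alternatives. Of the oocyte genes, 1 was called higher in mESCs with windows of 1 gene, where Khdc3, Gcat and Yy2 were not tested, and Foxa2 was not tested in thinned libraries. Padi6, an oocyte gene not tested in the main fit, was called higher in mESCs under 3 alternatives. These were DESeq2 (adjusted p = 0.0128), no filter (adjusted p = 6.52e-04, edgeR) and tags in the gene body (log2 fold change 8.11, adjusted p = 5.19e-15, edgeR). Pou3f1 was not tested, but it was called higher in mOPCs with DESeq2 and with no filter and higher in mESCs with tags in the gene body (log2 fold change 0.64, adjusted p = 0.00736, edgeR). The main start moved to the second of the pair for Dppa5a without the second mESC library and for Zfp42 without the third. With tags within 100 bp, the mESC level of Dppa2 was 13.8 CPM and that of Tdh 409 CPM, and the share at the main start of Tdh was 79.4%. With tags in the gene body, the levels were 18.3 CPM for Dppa2, 681 for Zfp42 and 434 for L1td1. These 6 values moved by more than the SD between libraries. The width of the upstream Dppa2 promoter was 71 bp, 47 bp with tags within 100 bp and 46 bp without the third mESC library, and the cause was not tested. A count of 0 in the mOPC libraries limits the folds to bounds.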
